A study of Mus musculus with 15 samples.

Results

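The Notch receptors, ligands and target genes were followed across NMuMG-derived cell lines in 10 genes, matched by symbol: the receptors Notch1, Notch2, Notch3 and Notch4, the ligands Jag1, Jag2 and Dll1, and the targets Hes1, Hey1 and Heyl. Of these, 8 were among the 13893 genes of dataset 1 (no values for Dll1 and Heyl), and 9 were among the 15023 genes of dataset 2 (no values for Heyl), so Heyl was not analysed here. NMuMG is an epithelial line from normal mouse mammary gland, and RNA-Seq of total RNA depleted of ribosomal RNA was given as CPM (read counts scaled to the library total), one value per gene and library. The study asked how PCBP1, an RNA-binding protein, acts through the secreted protein FAM3C and the leukemia inhibitory factor receptor LIFR.

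Dataset 2 held 2 samples of control NMuMG cells, wild type and without treatment in the labels but called shSCR (a nonspecific shRNA) in the study's text, and 2 samples of shPCBP1 cells, wild type with an shRNA knockdown of PCBP1. Every line of dataset 1 carried that knockdown, the controls included. The 4 shPCBP1 lines were the unaltered line and CT clones 1 to 3, which had received Cas9 with no gene-specific guide. The 3 FAM3C KO clones (FAM3C -/-) and the 3 LIFR KO clones (LIFR -/-) were made from shPCBP1 cells by CRISPR, and 1 FAM3C/LIFR double KO (FAM3C -/-, LIFR -/-) entered no test. Each line of dataset 1 gave 1 RNA sample and each knockout line is 1 clone. For dataset 2 the labels do not say whether the samples were separate cultures, so p-values there measure the spread between samples that may be technical. The datasets were normalized apart, and no level was compared between them.

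Notch receptors are membrane proteins that are cut when a Jagged or Delta ligand on a neighbouring cell binds them, first by an ADAM metalloprotease and then by gamma-secretase. The released intracellular domain joins RBPJ and Mastermind in the nucleus and turns on Hes and Hey genes, which encode transcriptional repressors. In the mammary gland the pathway is known for its part in luminal cell fate, and mouse Notch4 was found as an integration site of mouse mammary tumor virus.

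The 4 genes whose mRNA differed most in the comparisons below were Notch1, Notch4, Jag1 and Jag2. Their upstream sequences are shown because they differ widely in their number of CG pairs. The GC content that separated libraries of dataset 1, described below, was that of the transcript and not of these stretches. Each line gives the 250 bases before a RefSeq transcript start (GRCm38.p6), 5′ to 3′ on the strand of the gene, with every CG pair in capitals. The Notch1 entry is chr2:26503823-26504072 (minus strand), Notch4 is chr17:34564045-34564294 (plus strand), Jag1 is chr2:137116521-137116770 (minus strand), and Jag2 is chr12:112929496-112929745 (minus strand). Each of these RefSeq starts lies inside the GENCODE gene used for positions below, so the stretches overlap it.
Notch1: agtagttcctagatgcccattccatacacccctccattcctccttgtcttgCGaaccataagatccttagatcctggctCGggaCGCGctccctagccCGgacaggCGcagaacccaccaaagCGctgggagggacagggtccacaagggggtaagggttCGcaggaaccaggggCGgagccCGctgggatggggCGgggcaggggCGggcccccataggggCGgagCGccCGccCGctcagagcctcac
Notch4: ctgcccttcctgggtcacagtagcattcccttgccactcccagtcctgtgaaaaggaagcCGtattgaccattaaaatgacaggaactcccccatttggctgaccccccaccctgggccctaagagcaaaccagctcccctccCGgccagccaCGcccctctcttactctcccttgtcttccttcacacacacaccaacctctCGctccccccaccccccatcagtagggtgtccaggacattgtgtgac
Jag1: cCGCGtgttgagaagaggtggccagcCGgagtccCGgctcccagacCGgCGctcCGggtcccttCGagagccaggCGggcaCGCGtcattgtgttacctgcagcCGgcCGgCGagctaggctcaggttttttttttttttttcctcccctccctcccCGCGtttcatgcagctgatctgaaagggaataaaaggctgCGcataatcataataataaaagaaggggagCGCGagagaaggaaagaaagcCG
Jag2: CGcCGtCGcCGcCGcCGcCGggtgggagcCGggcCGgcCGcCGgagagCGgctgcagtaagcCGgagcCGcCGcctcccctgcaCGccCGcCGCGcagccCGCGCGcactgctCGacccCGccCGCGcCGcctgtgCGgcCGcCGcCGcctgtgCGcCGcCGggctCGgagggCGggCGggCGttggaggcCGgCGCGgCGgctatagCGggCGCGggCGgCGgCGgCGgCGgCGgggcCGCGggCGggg
The stretch of Jag2 held 54 CG pairs and was 87.2% G or C. Jag1 held 20 pairs at 57.2%, Notch1 held 16 at 66.0% and Notch4 held 4 at 58.4%, beside a median of 6 pairs over all 32851 promoters of the table. Of the members, 7 had an entry, 8 windows in all since Dll1 had 2. These were the receptors and ligands only. The targets Hes1, Hey1 and Heyl had no entry, so their promoters were not searched. The RBPJ core TGGGAA, searched on both strands of the 300-base windows (250 before and 50 after the start), was in 0 of the 8 member windows and in 25.6% of all windows. The STAT pattern TTCNNNGAA, which reads the same on both strands, was in 1 member window and in 8.3% of all windows. That window belonged to Notch3, where the match, in capitals, began at transcript base 3, within the stretch chr17:32166869-32166898 (minus strand) printed here.
Notch3: acagcctcacTTCGGCGAAgttggcggcgc
A match is a description of letters and says nothing of binding.

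The knockdown was visible in its target. Pcbp1 was at 287 and 312 CPM in the control samples and at 14.1 and 14.2 CPM in the shPCBP1 samples. Fam3c was at 47.0 to 59.4 CPM in the shPCBP1 lines of dataset 1 and at 26.4 to 42.9 CPM in the FAM3C KO clones. Lifr was at 25.8 to 40.2 CPM in the shPCBP1 lines, 14.6 to 34.9 CPM in the LIFR KO clones, 10.5 to 19.2 CPM in the FAM3C KO clones and 4.36 CPM in the double KO. The mRNA level of an edited gene does not by itself show the edit. Read depth was implied by the lowest value of each library in dataset 1, taken as 1 read, and by the smallest step of the values in dataset 2. It was 16031859 to 46901675 reads per library in dataset 1 and 53032111 to 56496537 in dataset 2. LIFR KO clones 2 and 3 and the double KO stood apart. Their deviations from the mean log2 level of the shPCBP1 lines followed the GC content of the longest transcript of the gene (Spearman rho of -0.757, -0.744 and -0.702 over 12603 genes). LIFR KO clone 1 was at 0.0697 and the remaining libraries at -0.286 to 0.24, each shPCBP1 line being set against the other shPCBP1 lines. By this measure Jag2 (61.9% GC), Notch4 (61.2%), Notch3 (59.6%) and Notch1 (57.1%) were the most GC-rich members and Jag1 (48.8%) the least. Markers of other cells were low, with summed levels of at most 5.24 CPM for basal or myoepithelial, 2.24 CPM for endothelial and 10.9 CPM for immune markers in any library. Summed epithelial markers (6 of 10 listed had values, and Epcam and Esrp1 were not analysed here) were at 2935 to 2989 CPM in control and 2774 to 2831 CPM in shPCBP1 samples, and of 5 tested 1 was called higher and 4 lower. Summed mesenchymal markers were at 598 to 617 CPM in control and 1639 to 1668 CPM in shPCBP1 samples, with 9 of 9 tested markers called higher. In dataset 1 the epithelial sums were 2478 to 3183 CPM in shPCBP1, 2006 to 3038 CPM in FAM3C KO and 1226 to 2108 CPM in LIFR KO lines, and the mesenchymal sums 2136 to 2392, 2383 to 2577 and 1630 to 2223 CPM. The part of these in the Notch values was not tested, and in bulk RNA fewer cells of a type and less RNA per cell cannot be told apart.

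PCBP1 knockdown in NMuMG cells was accompanied by lower mRNA of both main receptors and of Jag1 and by higher Jag2. Notch1 and Jag1 fell by about the same factor, Jag2 rose to 1.83 times its control level, and the values of the target Hes1 overlapped. The comparison was shPCBP1 against control samples of dataset 2, tested with limma on log2(CPM + 0.1) for genes whose mean reached 0.5 CPM and called at a Benjamini-Hochberg adjusted p under 0.07, the study's threshold. Of 11384 genes, 42.1% were called higher and 38.0% lower, so a call by itself says little here. The size of each called change in a member is given with its place among all genes.

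Notch1 (ENSMUSG00000026923, chr2:26457903-26516663, minus strand, GRCm38 with GENCODE M21 as for all genes below) was at 30.2 and 28.9 CPM in control and at 15.5 and 14.7 CPM in shPCBP1 samples. Both shPCBP1 samples lay near 0.511 of the control mean. The log2 fold change was -0.96 (SE 0.0471, limma adjusted p = 8.41e-09), lower than in 92.6% of tested genes. Notch2 (ENSMUSG00000027878, chr3:98013527-98150361, plus strand), the most abundant receptor, was at 96.8 and 99.1 CPM in control and at 61.4 and 60.8 CPM in shPCBP1 samples. It fell too, without overlap, by 0.68 on the log2 scale (SE 0.0267, limma adjusted p = 1.42e-09), further down than 87.5% of tested genes. Notch4 (ENSMUSG00000015468, chr17:34564268-34588503, plus strand) was at 0.921 and 1.04 CPM in control and at 0.986 and 0.979 CPM in shPCBP1 samples. These values overlapped, with a log2 fold change of 0.01 (SE 0.151, limma adjusted p = 0.967). Notch3 (ENSMUSG00000038146, chr17:32120820-32166852, minus strand) was near the floor, at 0.0178 and 0.0001 CPM (the value the table holds in place of 0) in control and at 0.247 and 0.129 CPM in shPCBP1 samples, under the limit for testing.

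The Jagged ligands moved in opposite directions. Jag1 (ENSMUSG00000027276, chr2:137081456-137116644, minus strand), whose upstream sequence is shown above, was at 59.8 and 62.3 CPM in control and at 32.8 and 33.2 CPM in shPCBP1 samples. It was lower in both shPCBP1 samples, by 0.88 on the log2 scale (SE 0.033, limma adjusted p = 9.84e-10), further down than 91.6% of genes. Jag2 (ENSMUSG00000002799, chr12:112907819-112929776, minus strand) was at 8.85 and 9.28 CPM in control and at 16.8 and 16.4 CPM in shPCBP1 samples. Both shPCBP1 samples were above both controls (log2 fold change 0.87, SE 0.0587, limma adjusted p = 1.27e-07), further up than 90.9% of genes. The ratio of Jag1 to Jag2 CPM was therefore 6.76 and 6.72 in the control samples and 1.95 and 2.03 in the shPCBP1 samples, with the summed CPM of both ligands falling from 68.7 and 71.6 to 49.7 and 49.6. Dll1 (ENSMUSG00000014773, chr17:15367354-15376872, minus strand), the Delta ligand of the set, was at 0.019 to 0.0371 CPM over all 4 samples and was not tested.

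**Figure D1:**
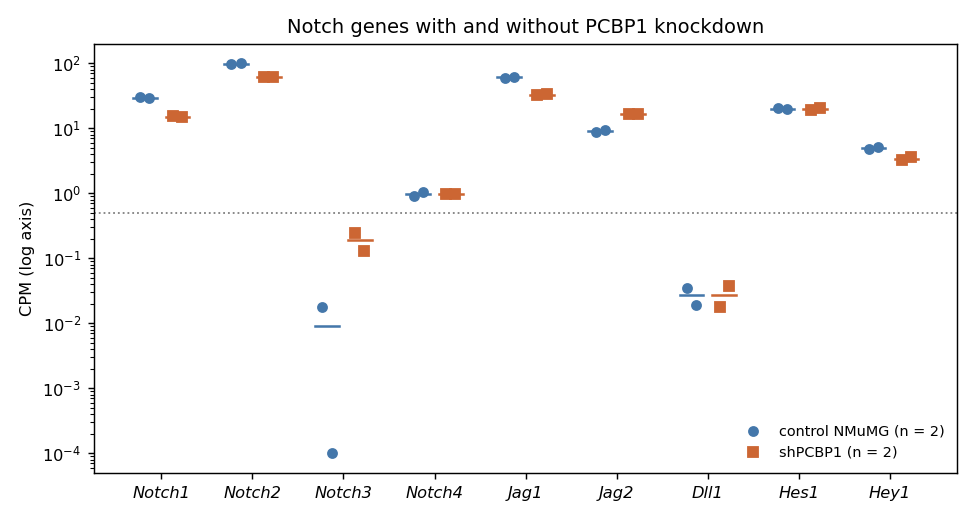
CPM on a log axis of 9 Notch genes in the 2 control NMuMG samples (circles) and the 2 shPCBP1 samples (squares) of dataset 2, with a bar at each mean and a dotted line at 0.5 CPM, the mean needed for testing. Notch1, Notch2, Jag1 and Hey1 were lower and Jag2 higher in both shPCBP1 samples, while Notch4 and Hes1 overlapped.

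The targets did not move together. Hes1 (ENSMUSG00000022528, chr16:30064384-30067796, plus strand), a basic helix-loop-helix repressor, was at 20.3 and 19.7 CPM in control and at 18.9 and 20.2 CPM in shPCBP1 samples. The samples overlapped, and the log2 fold change was -0.03 (SE 0.0491, limma adjusted p = 0.577). Hey1 (ENSMUSG00000040289, chr3:8663359-8667256, minus strand), a repressor of the related Hey family, was at 4.85 and 5.15 CPM in control and at 3.28 and 3.57 CPM in shPCBP1 samples. It fell by 0.53 on the log2 scale (SE 0.0988, limma adjusted p = 0.000469), further down than 83.3% of tested genes. In all, 5 of the 7 tested members were called, 1 higher and 4 lower, beside 42.1% of all tested genes called higher and 38.0% lower. The same number of members did not overlap between the groups, beside 89.0% of all tested genes, with 2 samples a group. The median log2 fold change of the 7 was -0.53, against 0.02 over all tested genes.

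Other genes of the pathway, in 7 lists of 59 genes, included some with larger changes than any tested member. Of 47 tested, 21 were called higher and 19 lower, beside 42.1% higher and 38.0% lower of all tested genes. Their median log2 fold change was -0.02, against 0.02 over all tested genes. Of the 13 tested genes for ubiquitin ligases and trafficking 3 were called higher and 8 lower, of 9 receptor cleavage genes 5 higher and 2 lower, and of 8 genes of the nuclear complex 3 higher and 4 lower. Among 8 co-repressors 3 were called higher and 3 lower, among 4 glycosyltransferases 3 higher and 1 lower, among 4 other targets 3 higher and 1 lower, and the 1 further ligand tested was called higher. Neurl1a, a ubiquitin ligase of the Neuralized family that acts on Notch ligands, rose from 0.443 and 0.34 CPM in control to 6.31 and 6.34 CPM in shPCBP1 samples (log2 fold change 3.72, SE 0.144, limma adjusted p = 1.27e-09). Dlk2, a non-canonical ligand, rose from 2.34 and 2.15 CPM to 16.8 and 16.5 CPM. Poglut1, which adds glucose to the EGF repeats of the receptors, rose from 6.64 and 5.98 CPM to 20.3 and 20.8 CPM. Against these, Psen2, a catalytic subunit of gamma-secretase, fell from 4.21 and 4.07 CPM to 1.36 and 1.68 CPM, a log2 fold change of -1.39. Of the remaining target genes, Nrarp, a feedback inhibitor of Notch signaling, rose from 1.68 and 1.51 CPM to 4.12 and 4.01 CPM, whereas Hes6, a Hes family member known to oppose Hes1, fell from 25.9 and 24.7 CPM to 11.02 and 11.05 CPM. All 6 were apart in every sample, as were 89.0% of all tested genes, and passed the test under each alternative tried. They were picked as the called genes of largest change, so neither is separate support.

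The levels of the members were also ordered within each group, per kilobase of GENCODE M21 exons so that genes could be compared. Gene starts in the deposited tables equalled those of M21 for 14269 of 14795 matched genes in dataset 2 but for 302 of 13870 in dataset 1, so the annotation behind dataset 1 is not known and its order rests on M21 lengths. In control samples the order was Jag1 (10.5 CPM per kb), Hes1 (9.82), Notch2 (9.08), Notch1 (2.08), Hey1 (1.53), Jag2 (1.3), Notch4 (0.121), Dll1 and Notch3, and no neighbours overlapped. Divided by the longest transcript instead, Hes1 (13.6) stood before Jag1 (10.9). In shPCBP1 samples of the same dataset Hes1 (9.62 CPM per kb) led, Jag1 (5.67) and Notch2 (5.66) could not be separated, and Jag2 (2.38) had moved ahead of Notch1 (1.06) and Hey1 (1.05), which overlapped each other. In the shPCBP1 lines of dataset 1 the order was Hes1 (26.7 CPM per kb), Notch2 (16.5), Jag1 (12.4), Jag2 (5.04), Notch1 (3.13), Hey1 (0.92), Notch4 (0.237) and Notch3 (0.0567), and of the neighbours Notch2 and Jag1 overlapped and the others did not. Among the receptors, Notch2 made up 80.04% to 82.8% of the summed CPM per kb in dataset 2 and 78.6% to 91.4% in dataset 1.

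FAM3C loss was examined in the 3 FAM3C KO clones against the 4 shPCBP1 lines. Notch4, Jag1 and Jag2 were higher in every FAM3C KO clone than in any shPCBP1 line, at 1.53 to 2.22 times the shPCBP1 mean, and Hes1 and Notch2 were lower in every clone, by smaller amounts. None of these passed the test across all genes. Here 0.0872% of 12621 tested genes were called higher and 0.222% lower by limma, 39 genes in all, while 1286 had an unadjusted p under 0.05, and 0 of the 7 tested members were called (4 had an unadjusted p under 0.05). Of the 7, 5 did not overlap between the groups, beside 22.7% of all tested genes.

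Notch4 showed the largest difference of the members. The unaltered shPCBP1 line had 1.56 CPM and CT clones 1 to 3 had 1.77, 1.70 and 2.61 CPM, whereas FAM3C KO clones 1 to 3 had 3.94, 4.88 and 3.92 CPM. The log2 fold change was 1.13 (SE 0.227, limma adjusted p = 0.0968), higher than in 98.7% of tested genes. It passed the threshold with a pseudocount of 1 CPM (limma adjusted p = 0.0661), with a correction for GC content (0.0581) and when only these groups were fitted (0.0195), and over all 16 alternatives the adjusted p ran from 0.0195 to 0.346.

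Jag1 in the unaltered line was 96.1 CPM, with 66.4, 65.2 and 61.7 CPM in the CT clones and 127, 123 and 116 CPM in the FAM3C KO clones. The clones were all above the unaltered line, which itself stood above its CT clones. The log2 fold change was 0.78 (SE 0.313, limma adjusted p = 0.417). Jag2 in the unaltered line was 30.8 CPM, with 39.8, 28.1 and 41.7 CPM in the CT clones and 60.3, 54.7 and 46.3 CPM in the FAM3C KO clones. Here too the groups were apart, with a log2 fold change of 0.62 (SE 0.265, limma adjusted p = 0.446). With only these groups in the fit, Jag1 (limma adjusted p = 0.0205), Jag2 (0.052) and Hes1 (0.0558) were called as well as Notch4, in a fit that called 1048 genes.

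Hes1 in the unaltered line was 59.3 CPM, with 56.0, 53.5 and 48.9 CPM in the CT clones and 45.0, 44.5 and 43.4 CPM in the FAM3C KO clones. All clones lay below the lowest shPCBP1 line, with a log2 fold change of -0.29 (SE 0.122, limma adjusted p = 0.437). Notch2 was at 169 to 186 CPM in the shPCBP1 lines and at 142 to 166 CPM in the FAM3C KO clones (log2 fold change -0.22, limma adjusted p = 0.768). Notch1 (32.2 to 42.1 CPM against 40.6 to 50.6 CPM), Hey1 (3.04 to 3.59 CPM against 1.99 to 3.56 CPM) and Notch3 (0.2 to 0.531 CPM against 0.192 to 0.773 CPM, under the limit for testing) overlapped. The median log2 fold change of the 7 tested members was 0.20, against -0.01 over all tested genes.

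In FAM3C KO cells 0.0872% of all tested genes were called higher and 0.222% lower. Of 50 tested pathway genes outside the set, 1 was called higher and 0 lower. This was Mib2, a ubiquitin ligase that acts on Notch ligands, with 12.5 CPM in the unaltered line, 8.42, 9.62 and 9.86 CPM in the CT clones and 26.2, 24.2 and 21.2 CPM in the FAM3C KO clones. Every clone was above every shPCBP1 line, and the log2 fold change was 1.24 (SE 0.22, limma adjusted p = 0.0662). It passed the threshold under 5 of 16 alternatives, with adjusted p from 0.00376 to 0.26. The other 6 lists had 0 calls, with median log2 fold changes from -0.14 (further ligands, and other targets) to 0.02 (co-repressors).

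**Figure D2:**
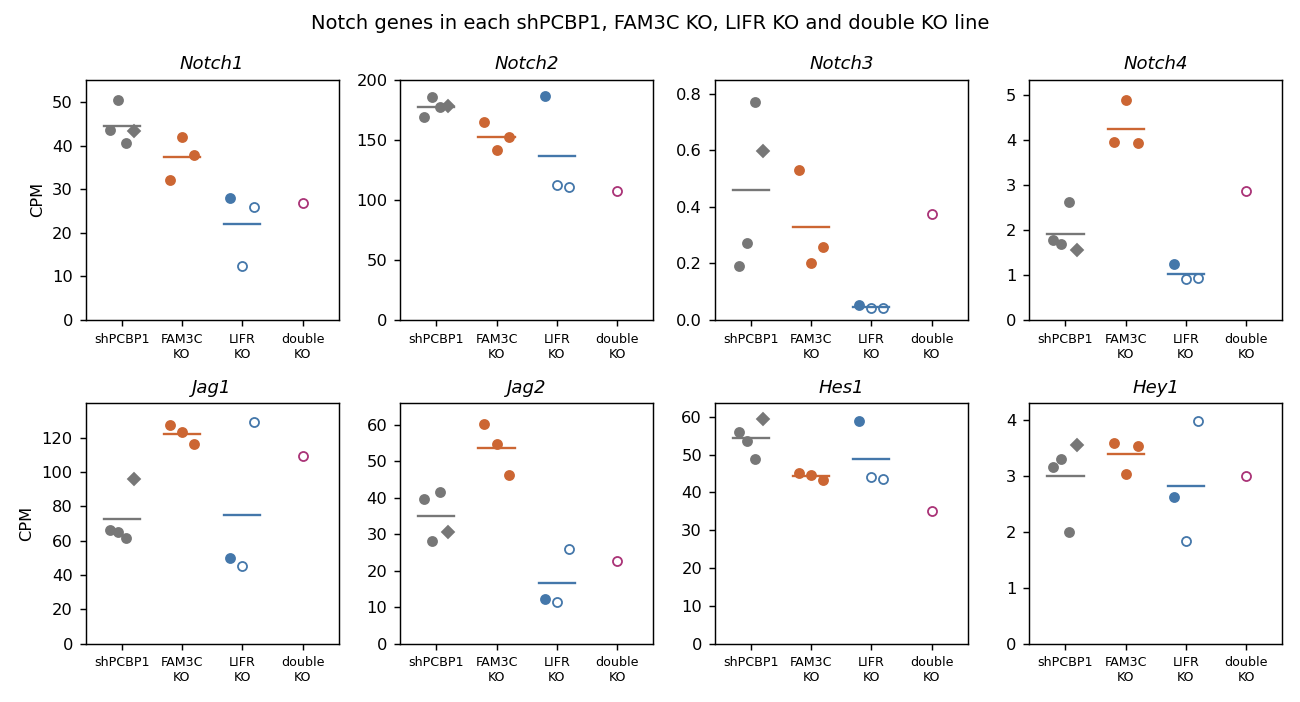
CPM of 8 Notch genes in each line of dataset 1: 4 shPCBP1 lines (the unaltered line as a diamond), 3 FAM3C KO clones, 3 LIFR KO clones and the double KO, with a bar at the mean of each group of more than 1 line. Open circles mark LIFR KO clones 2 and 3 and the double KO, whose levels followed GC content. Notch4, Jag1 and Jag2 were highest in the FAM3C KO clones but for 1 LIFR KO clone in Jag1, and Notch1, Notch4 and Jag2 were below every shPCBP1 line in all 3 LIFR KO clones.

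LIFR loss was examined in the 3 LIFR KO clones against the same 4 shPCBP1 lines, so both knockout comparisons share their controls. Notch1 and Jag2 were at 0.496 and 0.474 of the shPCBP1 mean and were called lower, and Notch4 was lower in every clone without passing the test. The fit called 0.911% of genes higher and 5.55% lower (115 and 701 genes, or 190 and 288 after median-ratio rescaling), and the median log2 fold change over all genes was -0.16, so values are also given relative to it. Of the 7 tested members 2 were called, 0 higher and 2 lower, and 3 did not overlap, beside 17.2% of all tested genes. The median of the 7 was -0.42.

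Notch1 in the unaltered line was 43.3 CPM, with 43.6, 50.6 and 40.6 CPM in the CT clones and, from clone 1 to clone 3, 28.0, 12.3 and 25.9 CPM in LIFR KO. All clones were below the lowest shPCBP1 line, clone 2 by the most. The log2 fold change was -1.09 (SE 0.247, limma adjusted p = 0.0478), or -0.93 relative to the median gene. The LIFR KO clones held Jag2 at 12.4 (clone 1), 11.5 (clone 2) and 25.9 CPM (clone 3), each below the lowest shPCBP1 line at 28.1 CPM. The log2 fold change was -1.16 (SE 0.265, limma adjusted p = 0.0488), or -0.99 relative to the median gene. Notch4 values were 1.23 (clone 1), 0.915 (clone 2) and 0.943 CPM (clone 3) against 1.56 CPM or more in the shPCBP1 lines, with a log2 fold change of -0.81 (SE 0.227, limma adjusted p = 0.0701).

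LIFR KO clone 1, whose levels did not follow GC content, was itself below every shPCBP1 line in Notch1, Jag2 and Notch4. These genes were picked out with clone 1 among the clones, so its low place is not separate support. When this clone alone stood for LIFR KO, Jag2 had a log2 fold change of -1.48 (limma adjusted p = 0.0269) and Notch1 one of -0.66 (limma adjusted p = 0.0972), in a fit that assumes the lone clone to vary like the other groups. With a correction for GC content the log2 fold changes were -0.39 for Jag2 (limma adjusted p = 0.62), -0.56 for Notch1 (0.209) and -0.08 for Notch4 (0.885), and 0 members were called. Both calls were also lost when any 1 of the 4 shPCBP1 lines or LIFR KO clone 2 was left out, with adjusted p of 0.0853 to 0.132 for Notch1 and 0.103 to 0.202 for Jag2, and with only these groups in the fit (0.114 and 0.118). Over 17 alternatives Notch1 passed in 7 (adjusted p from 0.00192 to 0.377) and Jag2 in 7 (0.00461 to 0.653).

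Jag1 split the LIFR KO clones. It was at 49.8 and 45.4 CPM in clones 1 and 2, below every shPCBP1 line, and at 129 CPM in clone 3, above every shPCBP1 line and every FAM3C KO clone. The log2 fold change was -0.10 (SE 0.313, limma adjusted p = 0.827). Notch2 was at 187 CPM in clone 1, above the highest shPCBP1 line, and at 112 and 111 CPM in clones 2 and 3, below the lowest (log2 fold change -0.42, limma adjusted p = 0.11). Hes1 was at 59.0 CPM in clone 1 and at 44.0 and 43.6 CPM in clones 2 and 3, and Hey1 was at 1.83 to 3.99 CPM, with adjusted p of 0.33 and 0.754 from limma. For Notch2 (53.6% GC) and Hes1 (50.7% GC), clones 2 and 3 were below every shPCBP1 line and clone 1 was not. Clones 2 and 3 are those whose levels followed GC content, and its part in these values was not tested. Notch3 was listed at the lowest value of its library in all 3 LIFR KO clones (0.0416 to 0.0536 CPM, which may stand for 0 reads or for 1), against 0.192 to 0.773 CPM in the shPCBP1 lines and 0.375 CPM in the double KO.

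Among the pathway genes outside the set, 0 of 50 were called higher and 4 lower in LIFR KO cells. Of all tested genes, 0.911% were called higher and 5.55% lower. The median log2 fold change of the 50 was -0.28, against -0.16 over all tested genes. Lfng, the fringe glycosyltransferase that changes which ligands a receptor answers, was at 11.9 to 13.8 CPM in the shPCBP1 lines and, from clone 1 to clone 3, at 9.01, 4.83 and 5.66 CPM in LIFR KO (log2 fold change -1.03, SE 0.207, limma adjusted p = 0.0388). Hes6 was at 10.96 to 11.96 CPM in the shPCBP1 lines and at 9.28, 5.12 and 4.97 CPM in the clones (log2 fold change -0.88, limma adjusted p = 0.0478). Psenen, a subunit of gamma-secretase, was at 12.8 to 14.0 CPM against 11.6, 8.41 and 9.11 CPM, and Ep300, an acetyltransferase recruited by the Notch complex, was at 227 to 262 CPM against 195, 162 and 209 CPM, with limma adjusted p of 0.0611 and 0.0669. In each of the 4 genes clone 1 was also below every shPCBP1 line, and for Lfng, Hes6 and Psenen it was the nearest to them. The 4 were called in a fit that includes clone 1, so its low place is not separate support. With the GC correction none of the 4 was called by limma: the log2 fold changes were -0.41 for Lfng (adjusted p = 0.143), -0.13 for Hes6 (0.546), -0.09 for Psenen (0.592) and -0.12 for Ep300 (0.499). In the same order they passed in 7, 6, 4 and 4 of 17 alternatives. The lists of further ligands, co-repressors and ubiquitin ligases and trafficking had 0 calls, and medians over the lists ran from -0.70 (further ligands) to -0.05 (nuclear complex).

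**Figure D3:**
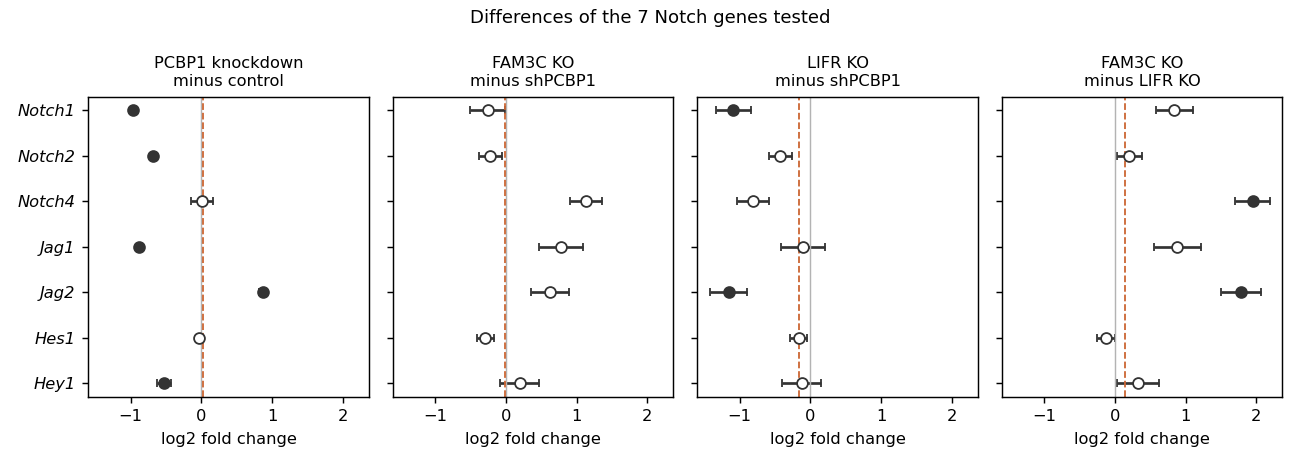
Log2 fold change of the 7 tested members in the 4 comparisons, with bars of 1 SE from limma, filled where the adjusted p was under 0.07. The grey line marks 0 and the dashed line the median over all tested genes. The largest differences between the knockouts are those of Notch4 (1.95) and Jag2 (1.78).

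The knockouts were then set against each other, FAM3C KO minus LIFR KO, from the same fit. Notch4 and Jag2 were higher in FAM3C KO clones, by 4.12 and 3.23 times in the ratio of means. In this comparison 6.83% of genes were called higher and 1.45% lower (862 and 183 genes, or 494 and 325 after median-ratio rescaling). Of the 7 tested members 2 were called, both higher, and 3 did not overlap, beside 22.8% of all tested genes. The median log2 difference of the 7 was 0.84, against 0.14 over all tested genes.

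For Notch4 the FAM3C KO clones (3.92 to 4.88 CPM) and the LIFR KO clones (0.915 to 1.23 CPM) were on either side of all 4 shPCBP1 lines. The log2 difference was 1.95 (SE 0.242, limma adjusted p = 0.024), further up than 99.1% of genes. For Jag2 the FAM3C KO clones (46.3 to 60.3 CPM) and the LIFR KO clones (11.5 to 25.9 CPM) were again on either side of the shPCBP1 lines. The log2 difference was 1.78 (SE 0.283, limma adjusted p = 0.0314). Notch1 was apart as well, at 32.2 CPM or more against 28.0 CPM or less (log2 difference 0.84, limma adjusted p = 0.0835), whereas Jag1 overlapped through LIFR KO clone 3 (0.88, limma adjusted p = 0.124). When clone 1 alone stood for LIFR KO, Jag2 (log2 difference 2.10, limma adjusted p = 0.00368), Notch4 (1.70, 0.0195), Jag1 (1.29, 0.0141) and Hes1 (-0.41, 0.0652) were called. With the correction for GC content Notch4 (1.25, limma adjusted p = 0.0779) and Jag2 (1.06, 0.182) were not, nor was either when FAM3C KO clone 1 or 3 was left out (adjusted p of 0.12 to 0.13 from limma). Without FAM3C KO clone 2, Notch4 was called (limma adjusted p = 0.0501) and Jag2 was not (0.0741).

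Of the 50 other pathway genes, 3 were called higher and 1 lower in FAM3C KO than in LIFR KO cells. Of all tested genes, 6.83% were called higher and 1.45% lower. The median log2 difference of the 50 was 0.21, against 0.14 over all tested genes. Mib2, at 21.2 to 26.2 CPM against 4.7 to 8.88 CPM, differed most (log2 difference 1.75, limma adjusted p = 0.024). Lfng was at 11.1 to 15.9 CPM against 4.83 to 9.01 CPM and Ep300 at 243 to 265 CPM against 162 to 209 CPM. Kat2b, an acetyltransferase that works with the Notch complex, was the 1 gene called lower in FAM3C KO, at 24.3 to 27.5 CPM against 31.5 to 38.5 CPM (log2 difference -0.42, limma adjusted p = 0.0534). Mib2, Lfng, Ep300 and Kat2b passed in 10, 7, 6 and 6 of 16 alternatives, with limma adjusted p of up to 0.199, 0.199, 0.32 and 0.227. With the replicate block, or with only these groups fitted, limma called 0 of all genes (3000 and 2228 at an unadjusted p under 0.05). The lists of ligands, receptor cleavage genes, co-repressors and other targets had 0 calls.

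The balance of the Jagged ligands differed between the lines. The unaltered shPCBP1 line had 3.12 times as much Jag1 as Jag2 CPM, and the CT clones 1.67, 2.32 and 1.48 times. It was 2.11, 2.26 and 2.51 times Jag2 in the FAM3C KO clones, within the range of the shPCBP1 lines, and 4.02, 3.94 and 4.97 times in the LIFR KO clones, above all of them. The sum of both ligands was 93.3 to 127 CPM in the shPCBP1 lines, 163 to 187 CPM in the FAM3C KO clones, and 62.2 (clone 1), 56.9 (clone 2) and 155 CPM (clone 3) in LIFR KO. So the FAM3C KO clones were higher in both ligands with a ratio like that of the shPCBP1 lines, and the LIFR KO clones were lower in Jag2 with a raised ratio. Jag2 is the most and Jag1 the least GC-rich member, and the levels of LIFR KO clones 2 and 3 followed GC content. The double KO, whose levels did so too, had 4.82 times as much Jag1 as Jag2. LIFR KO clone 1, whose levels did not, had 4.02 times. With the GC correction Jag2 was not called in LIFR KO. These ratios were not tested, nor was the part of GC content in them.

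**Figure D4:**
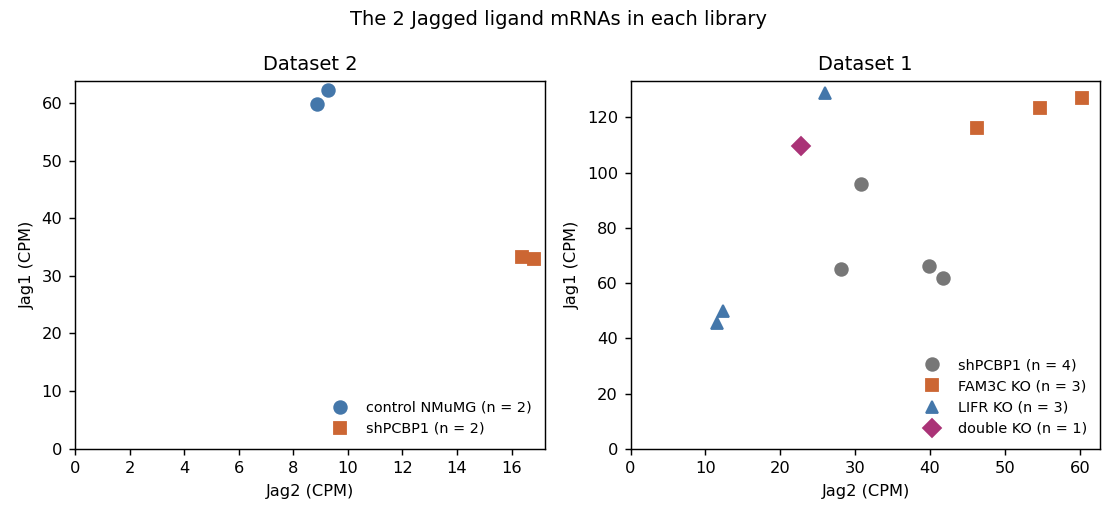
Jag1 CPM (vertical) against Jag2 CPM (horizontal) in each library, on axes from 0, for dataset 2 (left) and dataset 1 (right). In dataset 2 the shPCBP1 samples lie lower and to the right of the control samples, and in dataset 1 the FAM3C KO clones lie above and to the right of the shPCBP1 lines while LIFR KO clones 1 and 2 lie below and to the left of them.

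Over the 11 libraries of dataset 1 the SD of log2(CPM + 0.1) was largest for Notch4 (0.801) and Jag2 (0.79) and smallest for Hes1 (0.231). The genes whose levels were most like those of Notch4 among 12621 were Hoga1 (Pearson r = 0.959, Spearman rho = 0.936), Rhbdd2 (0.924 and 0.955) and Padi3 (0.923 and 0.873). Without the 2 libraries farthest from the median of Notch4, FAM3C KO clones 1 and 2, the Pearson r was 0.939, 0.91 and 0.863. These values describe 11 libraries that share their groups and their GC slopes.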

How the data were processed

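RNA-Seq was analysed in 15 libraries, 11 of dataset 1 and 4 of dataset 2. The authors aligned the reads to GRCm38, quantified genes in Partek Flow (the submitters' processing notes also name Bowtie2 and DESeq), and deposited CPM per gene and library. Dataset 2 holds 0.0001 in place of 0. In dataset 1 the lowest value of each library was taken as the value of 1 read, and whether it stands for 0 or 1 read is not stated. Deposited CPM were not whole reads (within 0.1 read, 90.7% to 93% of low values in dataset 1 and 93.8% to 94.2% in dataset 2 came out whole), so no count test was run. For dataset 2, 3 columns of the authors' means and fold change were not used.

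Values were tested as log2(CPM + 0.1), a scale that understates changes of low genes, in genes whose mean CPM reached 0.5, with limma 3.58.1 (mean-variance trend) in R 4.3.3, Benjamini-Hochberg over all tested genes and a threshold of 0.07. The shPCBP1, FAM3C KO and LIFR KO lines were fitted together, the double KO left out, and dataset 2 was fitted alone. The fit was tested on simulated data. Groups came from the sample labels, and gene positions and exon lengths from GENCODE M21, which matches the gene starts of dataset 2 but not those of dataset 1. Named genes were all members, the targeted genes, up to 6 called pathway genes of largest change per comparison, and the 3 genes most like the most variable member. Members and lists were chosen with earlier results of these data known. Alternatives were another scaling, pseudocount, filter and threshold, a replicate block, a GC correction, other sets of samples, and leaving out each library. Figures were drawn with matplotlib 3.10.9.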

Additional observations from a re-analysis of the deposited data

Results flagged for a closer look

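Jag1 in the unaltered shPCBP1 line, at 96.1 CPM, was far from the 3 CT clones (61.7 to 66.4 CPM). This was by a gap test that chance passes in about 1 of 20 groups. All 8 members in dataset 1 were put to it and only Jag1 passed, so chance had several openings. Without this line the log2 fold change of Jag1 in FAM3C KO was 0.92 (limma adjusted p = 0.36) in place of 0.78.

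The knockouts differed by a direct test in Notch4, with a log2 difference (FAM3C KO minus LIFR KO) of 1.95, and in Jag2, with one of 1.78. Neither was called by limma with the GC correction (1.25, adjusted p = 0.0779, and 1.06, adjusted p = 0.182), with the replicate block, or when only these groups were fitted, and they passed in 10 and 9 of 16 alternatives.

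The double KO entered no comparison. Its single library held Notch4 at 2.86 CPM and Jag1 at 109.5 CPM, both above all 4 shPCBP1 lines (at most 2.61 and 96.1 CPM) and below all 3 FAM3C KO clones. Its Jag2 (22.7 CPM), Notch1 (26.9 CPM), Notch2 (108 CPM) and Hes1 (35.1 CPM) were below every shPCBP1 line. This library was among the 3 whose levels followed GC content.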

How the results depend on the processing

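In PCBP1 knockdown 5 members were called under every alternative except with no filter on low values, where Notch3 was added. Leaving out any 1 sample kept 5. Requiring in addition a 1.5-fold change, chosen after seeing the data, left 3543 of 9123 genes and 4 of the 5 members. The knockout calls depended on the processing, and the cause was not tested except where named. In FAM3C KO, where limma called 0 members and 39 genes, a pseudocount of 1 CPM called 1 member, the GC correction 1 (237 genes), and fitting only the 2 groups 4 (1048 genes), while a mean of at least 1 CPM left 21 genes. In LIFR KO, with 2 members and 816 genes, a threshold of 0.05 left 359 genes, median-ratio rescaling 1 member and 478 genes (moving the median gene by 0.16), the GC correction 0 and 44, fitting only the 2 groups 0 and 35, and clone 1 alone 1 and 281. Between the knockouts, with 2 members and 1045 genes, a threshold of 0.05 left 587 genes, the GC correction 0 members and 74 genes, fitting only the 2 groups 0 and 0 (2228 genes at an unadjusted p under 0.05), and clone 1 alone gave 4 members.

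Leaving out 1 library gave 3 (shPCBP1 CT clone 1) to 27 genes (the unaltered line) in FAM3C KO. In LIFR KO it gave 0 to 5 members and 5 (without CT clone 2) to 7234 genes (without LIFR KO clone 1), and between the knockouts 0 to 4 members and 1 (without FAM3C KO clone 3) to 6673 genes (without LIFR KO clone 1). In LIFR KO, 0 members were called without any 1 of the shPCBP1 lines or without LIFR KO clone 2, and 5 without clone 1.

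The labels do not say that replicate numbers mark shared cultures or days, and same-numbered libraries did not deviate together (correlations of -0.189 to 0.154 over 9 pairs in dataset 1, and 0.0512 in dataset 2). With a replicate block, which leaves out the unaltered line, 15 genes were called in FAM3C KO, 10 genes and 0 members in LIFR KO, and 0 genes and 0 members between the knockouts (3000 genes at an unadjusted p under 0.05). With the GC correction and the replicate block these were 23 genes, 3 genes and 0 members, and 0 genes and 0 members (2279 genes at an unadjusted p under 0.05). Of 412 member values under alternatives, 364 kept their direction or lack of a call and their side of the threshold, 33 lost a call, 15 gained one, and 0 called values changed direction. Depth limits Notch3 and Dll1, which rest on few reads.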

Other observations

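Jag1 and Lifr levels split the 11 libraries of dataset 1 in the same way, a pattern noticed after the values were seen. The 5 libraries with the highest Jag1 (109.5 to 129 CPM) were the 3 FAM3C KO clones, LIFR KO clone 3 and the double KO, and they were also the 5 with the lowest Lifr (4.36 to 19.2 CPM). The other 6, the 4 shPCBP1 lines and LIFR KO clones 1 and 2, had Lifr at 25.8 to 40.2 CPM and Jag1 at 45.4 to 96.1 CPM. Within these 6 libraries the Pearson r of the log2 levels was -0.258 and the Spearman rho -0.543, given as a description. The 6 also mix groups, since the LIFR KO clones among them had the lowest Jag1 (49.8 and 45.4 CPM). These values therefore cannot separate a link within a group from a difference between groups. Since the libraries form separate groups, no correlation over all 11 was computed. How many other genes split the libraries in this way is not given here. LIFR was itself the edited gene in the LIFR KO clones and the double KO.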
